A study of Mus musculus with 20 samples.

Results

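The replication-dependent histone genes were taken as all promoters of the table whose gene symbol begins with Hist1, Hist2, Hist3 or Hist4. This name rule used no measured value and found 49 promoters of 22480. By their symbols the genes are 4 of linker histone H1, 14 of H2A, 13 of H2B, 7 of H3 and 11 of H4. Among those of H2B, Hist3h2bb-ps is annotated as a processed pseudogene. Of the 49 promoters, 38 lie in the Hist1 cluster on chromosome 13 (mm10), 7 in the Hist2 cluster on chromosome 3, 3 in the Hist3 cluster on chromosome 11 and 1, Hist4h4, on chromosome 6. Among them are 3 testis variants, Hist1h2aa (testis H2A), Hist1h2ba (testis H2B) and Hist1h1t (testis linker histone H1t).

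Sperm DNA was analyzed by MBD-sequencing in 20 F1 males, 5 in each of 4 groups given by strain (C57BL/6J or FVB/N) and by the treatment of the mother (control or DEHP). In the DEHP groups the mothers were gavaged with the plasticizer di-(2-ethylhexyl) phthalate in corn oil at 300 mg/kg/day from gestation day 9 to 19, in the control groups they got corn oil alone, and sons of both were sampled at 8 weeks of age. MBD-sequencing captures DNA fragments with a methyl-CpG binding domain, so reads over a promoter grow with its methylation and with the number of its CG sites. The deposited table gives for each promoter probe (2.2 kb, from 2000 bp before to 200 bp after the gene start) the mean and SD of normalized reads over the 5 libraries of a group. Below, mean ± SD are therefore the authors' values (n = 5). Values of single libraries were not analysed here, and no p-value is given. The depth of each library is not in the table, and by the study's methods the DEHP libraries were on average sequenced more deeply and with slightly longer reads than the control libraries. DEHP and control samples were submitted for sequencing separately, and treatment, submission, depth and read length cannot be told apart. Both submissions held both strains. Sperm had diffused out of cut epididymis and vas deferens, and by the study's methods each preparation was inspected under the microscope and dropped if somatic cells were seen. The sources used here do not say which males shared a litter, so the SD is the spread between these samples.

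Histones package DNA into nucleosomes, with H2A, H2B, H3 and H4 in the core and H1 at the linker. The replication-dependent genes are short, lack introns, sit in clusters and are transcribed together in S phase, and their mRNAs end in a stem-loop in place of a poly(A) tail. In the testis, male germ cells also use their own variants, TH2A, TH2B and H1t, before transition proteins and protamines replace most histones in the maturing spermatid. Promoters of genes used in germ cells alone are often methylated in somatic cells and free of methylation in sperm.

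The bases around the gene start are shown for the promoters on which the results turn, namely both testis types, the most read promoter, a pair of H4 genes and the promoter with the most CG sites. Each line holds 300 bases, from 250 before to 50 after the RefSeq gene start in GRCm38.p6, 5′ to 3′ on the strand of the gene, with every CG site in capitals. The windows lie at chr13:23934107-23934406 (- strand) for Hist1h2ba, chr13:23695561-23695860 (+) for Hist1h1t, chr13:23750838-23751137 (+) for Hist1h2ab, chr13:21734784-21735083 (+) for Hist1h4j, chr13:21750504-21750803 (-) for Hist1h4k and chr13:23761200-23761499 (-) for Hist1h4a.
Hist1h2ba: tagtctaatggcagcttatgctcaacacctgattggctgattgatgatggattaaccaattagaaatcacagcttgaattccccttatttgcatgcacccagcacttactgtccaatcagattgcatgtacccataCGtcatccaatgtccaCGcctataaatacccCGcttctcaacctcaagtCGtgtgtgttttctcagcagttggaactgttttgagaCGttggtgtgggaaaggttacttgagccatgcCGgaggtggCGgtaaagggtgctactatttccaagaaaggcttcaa
Hist1h1t: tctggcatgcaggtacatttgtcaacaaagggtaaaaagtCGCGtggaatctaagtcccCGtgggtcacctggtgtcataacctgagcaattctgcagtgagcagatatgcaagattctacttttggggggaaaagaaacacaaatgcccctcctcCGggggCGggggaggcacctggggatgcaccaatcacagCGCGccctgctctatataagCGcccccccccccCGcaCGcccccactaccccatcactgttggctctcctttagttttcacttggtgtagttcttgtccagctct
Hist1h2ab: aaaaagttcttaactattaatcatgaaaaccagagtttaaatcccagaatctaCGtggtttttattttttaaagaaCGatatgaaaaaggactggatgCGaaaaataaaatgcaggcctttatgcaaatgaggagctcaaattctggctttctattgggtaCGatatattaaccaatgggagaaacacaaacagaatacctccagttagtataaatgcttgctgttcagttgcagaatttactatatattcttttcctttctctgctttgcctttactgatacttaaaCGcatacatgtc
Hist1h4j: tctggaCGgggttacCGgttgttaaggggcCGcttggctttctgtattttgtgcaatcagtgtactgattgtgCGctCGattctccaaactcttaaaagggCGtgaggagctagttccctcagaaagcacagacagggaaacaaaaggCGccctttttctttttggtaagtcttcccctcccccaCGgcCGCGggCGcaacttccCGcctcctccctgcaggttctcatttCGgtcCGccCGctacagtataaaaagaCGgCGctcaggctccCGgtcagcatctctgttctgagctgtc
Hist1h4k: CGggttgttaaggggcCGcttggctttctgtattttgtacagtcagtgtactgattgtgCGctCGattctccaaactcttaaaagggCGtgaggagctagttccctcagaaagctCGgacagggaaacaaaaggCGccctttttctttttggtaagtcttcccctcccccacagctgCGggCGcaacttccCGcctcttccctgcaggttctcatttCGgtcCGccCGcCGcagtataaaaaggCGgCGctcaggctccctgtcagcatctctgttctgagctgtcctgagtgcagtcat
Hist1h4a: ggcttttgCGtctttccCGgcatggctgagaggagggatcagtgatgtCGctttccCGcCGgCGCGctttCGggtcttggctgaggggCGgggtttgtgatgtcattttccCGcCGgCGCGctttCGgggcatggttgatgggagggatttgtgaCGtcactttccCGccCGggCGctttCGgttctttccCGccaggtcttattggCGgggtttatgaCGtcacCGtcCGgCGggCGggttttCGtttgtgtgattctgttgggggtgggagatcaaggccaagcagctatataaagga
These windows hold 7 CG sites for Hist1h2ba, 10 for Hist1h1t, 5 for Hist1h2ab, 18 for Hist1h4j, 16 for Hist1h4k and 27 for Hist1h4a. The windows of Hist1h4j and Hist1h4k share 8 runs of at least 10 bases, 268 of 300 bases in all and the longest of 72.

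RefSeq held such a window for 46 of the 49 genes, and in 2 of these (Hist1h3d and Hist2h3c1) its gene start lay over 1 kb from that of the probe. The letters CCAAT, on either strand, occurred in 84.8% of the 46 windows against 37.4% of all 32851 RefSeq promoters of this length. TATAAA occurred in 56.5% against 13.6%. ATTTGCAT, the octamer read by Pou2f1, occurred in 26.1% against 1.74%, and all 12 windows with it belonged to H2A (7 of 14) or H2B genes (5 of 11), the testis pair Hist1h2aa and Hist1h2ba included. Windows of divergent genes can overlap, so the same motif can be counted for both. The testis pair shares its octamer in this way, as do Hist1h2ah and Hist1h2bk, so the octamers are fewer than the windows. CCAAT was in every window of the H1, H2A, H2B and H3 genes and in 3 of 10 H4 windows. None of these motifs contains another, and a match of letters is no evidence of binding.

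Histone promoters carried few reads in sperm. The median over the 49 promoters was 1.2 normalized reads in C57BL/6J control and 2.0 in C57BL/6J DEHP, then 1.0 in FVB/N control and 1.8 in FVB/N DEHP. Over all 22480 promoters the medians were 5.0, 5.3, 3.0 and 4.9. Averaged over the 4 groups, 43 of the 49 histone promoters lay below the median of all promoters (4.65). In C57BL/6J control 46.9% of the histone promoters had a mean of at most 1 normalized read, against 9.93% of all promoters. In FVB/N control these shares were 51% and 16.2%, in C57BL/6J DEHP 30.6% and 5.78%, and in FVB/N DEHP 30.6% and 8.27%. Hist1h2ae and Hist1h2af were listed at 0 in C57BL/6J control and Hist3h2a in FVB/N control. In DNA from many cells, more methylated cells and more methylated sites per cell cannot be told apart. All histone promoters together held 0.0415% to 0.0777% of the summed reads of a group. Between libraries the SD was as large as the mean or larger for 26 of the 49 promoters in C57BL/6J control, 34 in FVB/N control, 16 in C57BL/6J DEHP and 15 in FVB/N DEHP, so a single low promoter was poorly resolved.

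The low level did not go with few CG sites. Histone probes held 28 (Hist1h4b) to 132 (Hist1h4a) CG sites with a median of 69, against a median of 45 over all probes. Among probes with over 70 CG sites, the 24 histone promoters had a median of 1.0 normalized reads over the 4 groups and the 5575 promoters outside the histone genes 3.05. With 41 to 70 CG sites the medians were 2.55 (19 histone promoters) and 4.53 (6645 others), and with 21 to 40 sites 1.46 (6) and 10.9 (5273). Per 100 CG sites, the median of the histone promoters was 1.79 normalized reads in C57BL/6J control against 13.8 over all promoters, and 1.34 against 8.44 in FVB/N control. Within the 49 promoters, those with more CG sites tended to have fewer reads (Spearman's rho = -0.44, n = 49), while over all 22480 promoters rho was -0.15. Both are descriptions across promoters of the same libraries. Hist1h4a, with the most sites, had 1.2 ± 1.5, 0.7 ± 0.7, 0.6 ± 0.9 and 1.5 ± 0.5 in C57BL/6J control and DEHP and in FVB/N control and DEHP, and Hist1h4b, with the fewest, 0.9 ± 1.0, 3.2 ± 2.0, 0.6 ± 0.6 and 0.7 ± 1.1.

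**Figure D1:**
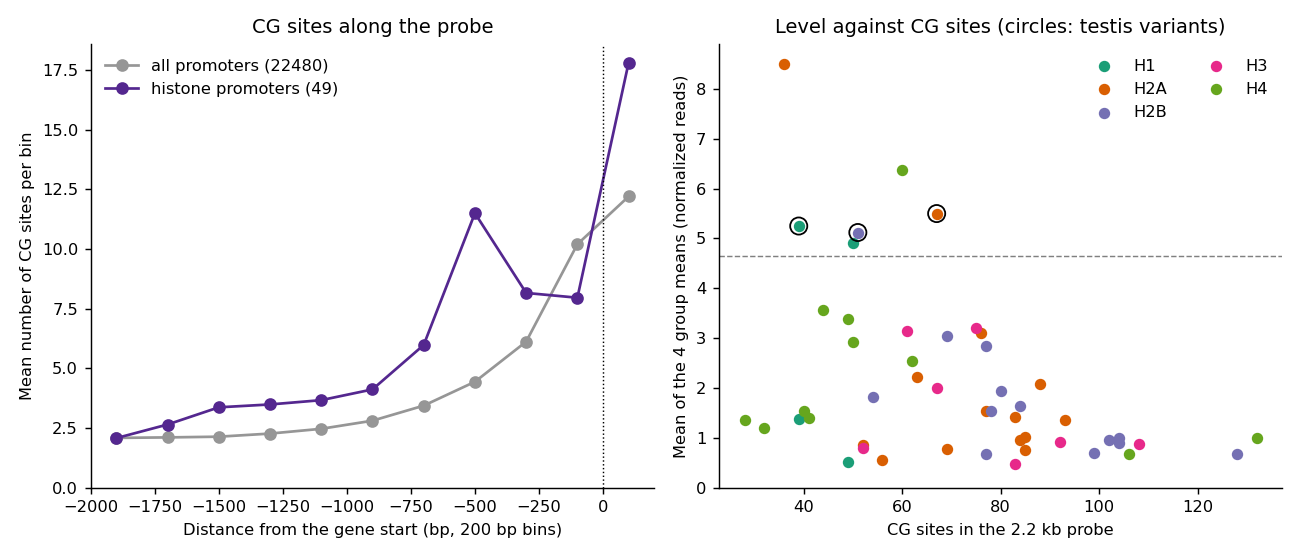
Left, mean number of CG sites in 200 bp bins of the probe against distance from the gene start (bp) for the 49 histone promoters and all 22480 promoters, with 17.8 and 12.2 sites in the bin after the start and 11.5 and 4.44 in the bin from -600 to -400 bp. Right, mean of the 4 group means (normalized reads) of each histone promoter against the CG sites in its probe, coloured by class, with circles around the testis variants and a dashed line at 4.65, the median of all promoters.

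CG sites were laid out differently from those of other promoters. In the 200 bp after the gene start the histone genes had 17.8 sites on average against 12.2 in all promoters, whereas in the 200 bp before it they had 7.96 against 10.2. A further rise stood in the bin from -600 to -400 bp, with 11.5 sites against 4.44, and it was made by H2A (15.1) and H2B (19.1) rather than by H1 (3.25) or H4 (4.18). Of the 49 probes, 29 overlap an exon of another histone gene. The CG sites in the 200 bp on either side of the start had no relation to the level (rho = -0.02), and those farther upstream had rho = -0.38.

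The mapping of read-pairs to these genes could be limited by their likeness. Of the 51-base words of a histone probe, 63.5% (Hist1h2bl) to 100% (Hist1h1t among others) occurred once in the chromosomes of GRCm38.p6, with a median of 92.7%, and 7 probes were under 80%. Pairs with several positions were discarded by the authors. The share of single words and the level had rho = 0.45 over the 49 promoters, and its part in the low levels was not tested.

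Probes of neighbouring genes also shared reads. In all, 28 of the 49 probes overlapped another histone probe, in 16 pairs with 383 to 2123 bp in common, and the 49 probes made 34 separate regions. Hist1h4i and Hist1h2bj share 2123 bp and had almost the same levels (0.675 and 0.70 over the 4 groups). Others did not. Hist1h2ab, the most read histone promoter, shares 908 bp and 25 CG sites around its gene start with the probe of Hist1h3b. Hist1h2ab had 9.1 ± 4.4, 7.9 ± 2.7, 6.3 ± 5.4 and 10.7 ± 2.7 normalized reads (C57BL/6J control and DEHP, then FVB/N control and DEHP, the order used from here on), while Hist1h3b had 0.7 ± 1.0, 0.8 ± 0.8, 0.4 ± 0.6 and 1.8 ± 1.3. A pair in the shared stretch counts for both genes, so, within rounding, at least 8.4, 7.1, 5.9 and 8.9 of the reads of Hist1h2ab came from pairs outside it, in the upstream part of its probe, which holds 11 CG sites. The same holds on a smaller scale for Hist1h2ag, which had 3.8 ± 2.1 and 5.0 ± 1.1 in the DEHP groups where Hist1h2bj, sharing 680 bp with it, had 0.9 ± 1.2 and 0.3 ± 0.7.

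By class, the medians of the 4 group means were 3.14 for H1, 1.39 for H2A, 1.55 for H2B, 0.925 for H3 and 1.55 for H4. In each class some promoters stood out. Among H1 genes these were Hist1h1t (39 CG sites) and Hist1h1c, a somatic linker histone with 4.7 ± 1.7, 7.0 ± 2.5, 1.9 ± 1.8 and 6.0 ± 1.8, while Hist1h1b, the lowest, did not exceed 0.9 in any group. Among H2A genes Hist1h2ab and Hist1h2aa led and Hist1h2ae was lowest (0.0 ± 0.0 to 0.9 ± 0.9). Among H2B genes Hist1h2ba led and Hist1h2bp (0.1 ± 0.3 to 1.4 ± 0.7) shared the lowest mean with Hist1h2bl. Among H3 genes Hist2h3c1 led with 3.5 ± 2.3, 4.7 ± 1.5, 0.9 ± 1.0 and 3.7 ± 1.6, and Hist1h3d was the lowest promoter of all with a mean of 0.475. The probes of these H3 genes overlap no exon of their own gene. That of Hist2h3c1 overlaps an exon of Hist2h2aa1, and that of Hist1h3d exons of Hist1h2ad and Hist1h2bf. Here and below, the values of both may thus not be those of their own promoters. Among H4 genes Hist1h4j led with 8.0 ± 2.9, 5.8 ± 3.3, 3.7 ± 2.0 and 8.0 ± 2.9, and Hist1h4i was lowest (0.2 ± 0.4 to 0.9 ± 1.2). The 5 highest promoters of a group held 26.1% to 41.6% of all histone reads in it.

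**Figure D2:**
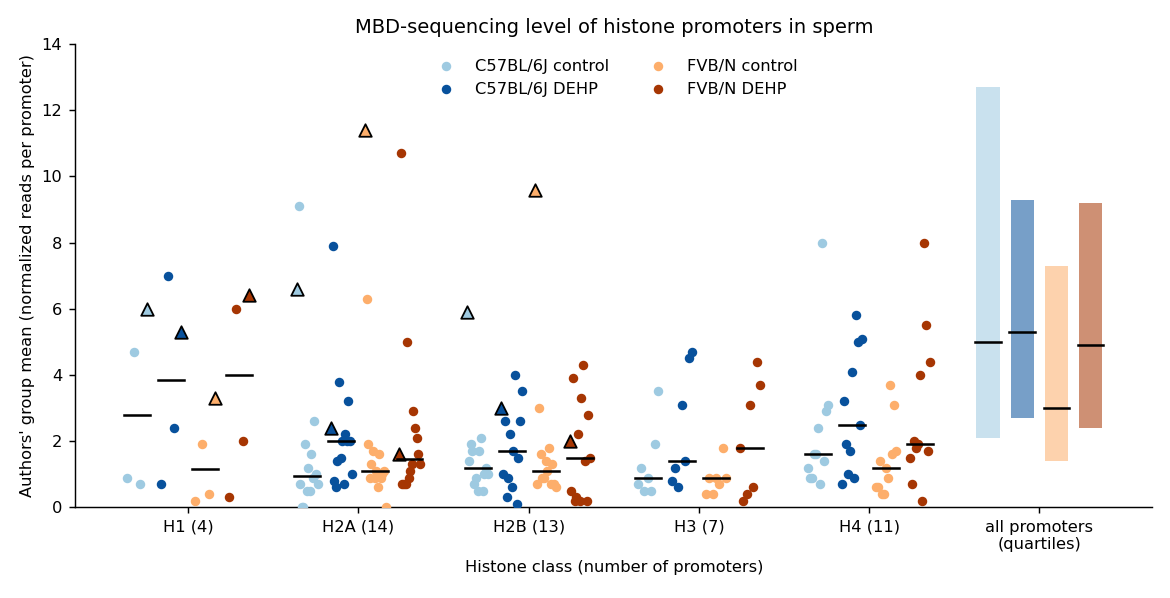
Authors' mean of normalized reads (y axis) of each histone promoter, by class (x axis) and group (colour), with black lines at the medians and triangles for the testis variants. Bars at the right span the lower to the upper quartile of all 22480 promoters, and the medians of H2A, H2B, H3 and H4 lie below the lower quartile in each group.

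The testis variants had a higher median than the other 46 histone promoters in control sperm, though Hist1h2ab and Hist1h4j exceeded all 3 in C57BL/6J control and Hist1h1t in FVB/N control. Hist1h2aa had 6.6 ± 5.7 normalized reads in C57BL/6J control and 2.4 ± 1.2 in C57BL/6J DEHP, and in FVB/N it had 11.4 ± 3.1 in control and 1.6 ± 1.1 in DEHP. Hist1h2ba had 5.9 ± 5.0, 3.0 ± 2.0, 9.6 ± 2.1 and 2.0 ± 0.8. Both were high in controls, most of all in FVB/N, and low after DEHP. Hist1h1t had 6.0 ± 2.4, 5.3 ± 3.6, 3.3 ± 3.9 and 6.4 ± 2.4, and the ranges of mean ± 1 SD of its groups overlapped throughout. The median of the 3 testis variants was 5.45 times that of the other 46 promoters in C57BL/6J control and 10.67 times in FVB/N control, but 1.54 and 1.14 times in the DEHP groups. In FVB/N control Hist1h2aa and Hist1h2ba ranked first and second of the 49 promoters, above Hist1h2ab, whereas in FVB/N DEHP they ranked 27 and 20. Per 100 CG sites they had 17.0 and 18.8 normalized reads in FVB/N control and 2.39 and 3.92 in FVB/N DEHP. Their probes held 67, 51 and 39 CG sites, against a median of 75.5 in the other 46.

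**Figure D3:**
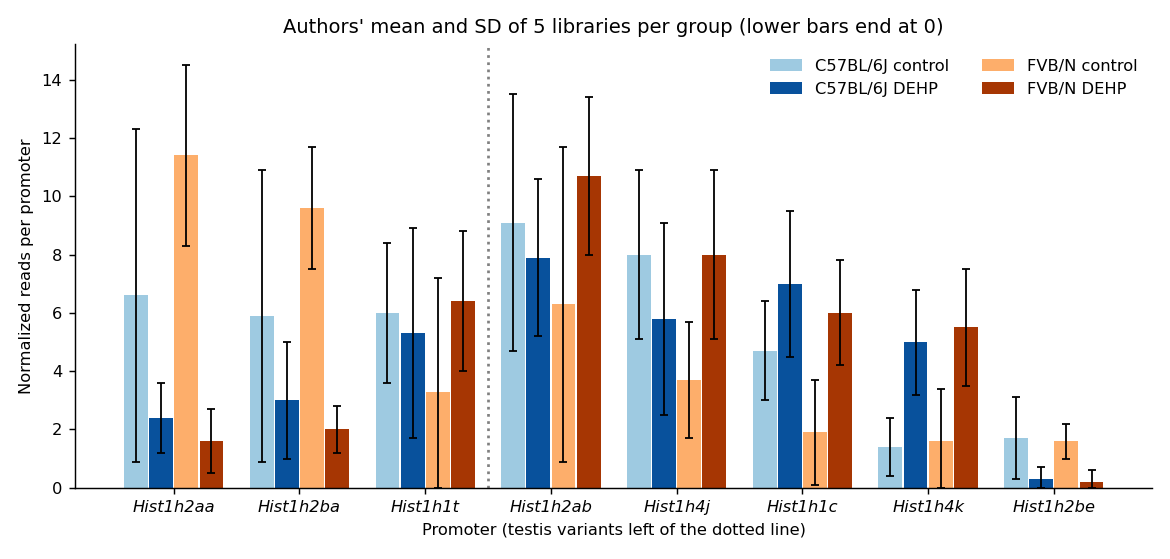
Authors' mean (bars) and SD (lines, n = 5 libraries) of normalized reads per promoter in the 4 groups for the 3 testis variants and 5 further histone promoters. Hist1h2aa and Hist1h2ba stand at 11.4 and 9.6 in FVB/N control and at 1.6 and 2.0 in FVB/N DEHP, and Hist1h1t, Hist1h2ab and Hist1h4j do not share that pattern.

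Hist1h2aa and Hist1h2ba are 1 locus and not 2 independent observations. The genes are transcribed away from each other from starts 306 bp apart, at 23934462 (Hist1h2aa, + strand) and 23934156 (Hist1h2ba, - strand) on chromosome 13. Their probes run from 23932462 to 23934661 and from 23933957 to 23936156 and share 705 bp with 25 CG sites. Each probe overlaps exons of both genes. The union of 3695 bp holds 92 CG sites, of which 8 lie between the gene starts. The authors counted 0 variants between C57BL/6J and FVB/N in either probe, and 94.0% and 99.5% of their 51-base words occurred once in the genome.

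**Figure D4:**
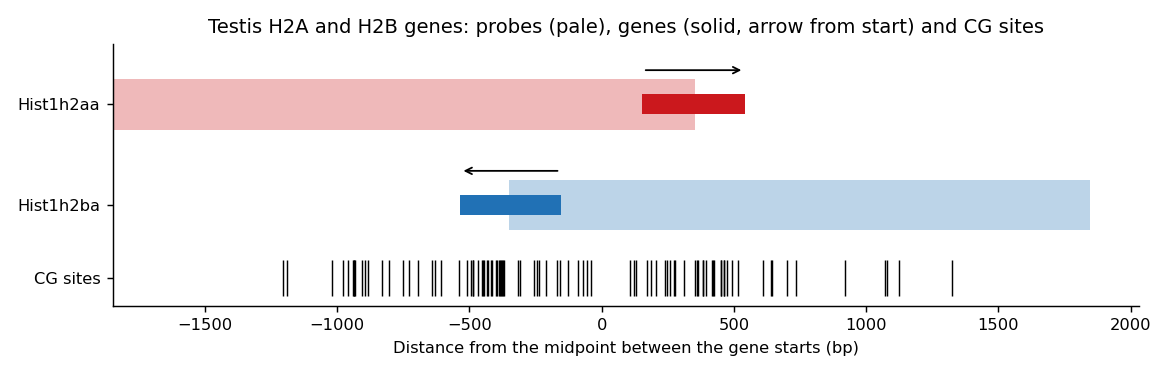
Probes (pale), genes (solid, with arrows from the start) and CG sites (ticks) of Hist1h2aa and Hist1h2ba against distance in bp from the midpoint between their starts. The probes share 705 bp around the midpoint, and most of the 92 CG sites lie over the gene bodies and not in the 306 bp between the starts.

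The comparison of DEHP with control asked which promoters differ in sperm methylation after exposure in utero. Groups were called separated where every library of one must lie above every library of the other, since no value of 5 can lie more than 1.79 SD from their mean. In C57BL/6J no histone promoter was separated in either direction, where 0.249% of all promoters were separated upward and 1.42% downward. In FVB/N 0 were separated upward, against 0.774% of all promoters, and 2 of 49 (4.08%) downward, against 0.859%. These 2 were Hist1h2aa and Hist1h2ba, so that 1 locus of 34 was concerned. No FVB/N control library was below 5.72 at Hist1h2aa or 5.70 at Hist1h2ba, and no FVB/N DEHP library was above 3.71 or 3.57. The log2 ratio of DEHP over control (means plus a pseudocount of 1) was -2.25 ± 0.32 (SE) for Hist1h2aa and -1.82 ± 0.21 for Hist1h2ba. Of all 22480 promoters, 5 had a lower log2 ratio in FVB/N than Hist1h2aa and 27 a lower one than Hist1h2ba.

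In C57BL/6J the same locus had log2 ratios of -1.16 ± 0.53 and -0.79 ± 0.57, the lowest and the third lowest of the 49, with groups that could overlap since the control SD (5.7 and 5.0) was nearly as large as the mean. The difference between strains (C57BL/6J less FVB/N) was 1.09 ± 0.62 (SE) for Hist1h2aa and 1.03 ± 0.61 for Hist1h2ba, less than 2 SE. Over all promoters this difference had a median of -0.50. As deposited it exceeded 2 SE in 16.6% of all promoters and in 6 of the 49 histone promoters. With groups scaled to equal sums or to equal medians the difference of the pair was 1.68 ± 0.61 and 1.61 ± 0.59 (the same under both), more than 2 SE. The share of all promoters above 2 SE under these scalings is not given here. Whether the change at this locus differs between strains thus depends on the scaling. With equal sums the C57BL/6J ratios were -0.70 ± 0.52 and -0.33 ± 0.55. For Hist1h1t the log2 ratio was 0.78 ± 0.62 in FVB/N and -0.15 ± 0.43 in C57BL/6J. The latter became 0.32 with equal sums, and the former 0.21 with equal medians. The testis variants less the other histone promoters differed in their median log2 ratio by -1.10 (C57BL/6J) and -2.43 (FVB/N), which with 3 promoters at 2 loci is the value of Hist1h2ba.

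The promoters next to the testis pair were not separated, and in FVB/N their log2 ratios as deposited were 0.06 ± 0.57 (Slc17a4) and 0.95 ± 0.55 (Scgn). Slc17a4, 17.7 kb away, had 12.9 ± 12.2 in FVB/N control and 13.5 ± 1.0 in FVB/N DEHP, and Scgn, 58.6 kb away, 5.8 ± 5.4 and 12.1 ± 4.0. In C57BL/6J the log2 ratio was -0.77 ± 0.30 at Slc17a4 (20.6 ± 9.0 and 11.7 ± 2.6) and -0.88 ± 0.28 at Slc17a3, close to that of Hist1h2ba, and 0.0 ± 0.36 at Scgn. Over all 37 promoters without a Hist symbol within 100 kb of a histone probe, the median level was 4.17 over the 4 groups, 0 were separated downward in FVB/N and 2 upward (2810021J22Rik and Olfr11). In C57BL/6J 1 was separated downward (Gucy2c) and 1 upward (Vmn1r188). Trim17, 1 of the 37, has the same probe as Hist3h2a.

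Other promoters of germ cell genes were in part lower after DEHP as well. Of 10 such promoters listed as free of methylation in sperm, 1 had a log2 ratio above the median of all promoters in FVB/N and 2 in C57BL/6J, and 0 were separated in either strain. Their median level was 7.15 in FVB/N control and 3.20 in FVB/N DEHP, and 6.00 and 3.75 in C57BL/6J. Dazl, an RNA-binding protein of germ cells, had 10.6 ± 3.3 and 2.8 ± 1.7 in FVB/N, and Stk31, a germ cell kinase, 5.5 ± 1.5 and 1.6 ± 1.4. Both were named after their values were seen, and had the lowest log2 ratios of the 10 in FVB/N (-1.61 and -1.32). Tdrd1 had -0.29, Mael -0.11 and Tex101 0.67 there. Maternally methylated imprinted promoters, which are free of methylation in sperm and carry it on 1 allele in somatic cells, had a median over 10 of 2.80 and 3.65 in FVB/N and 3.55 and 4.20 in C57BL/6J. Of these 10, 4 had a log2 ratio above the median of all promoters in FVB/N and 8 in C57BL/6J. The promoters of H19, Rasgrf1 and Meg3, genes listed for methylation on the paternal allele, had medians of 7.0 and 5.2 in FVB/N and 25.3 and 9.20 in C57BL/6J. The C57BL/6J medians are those of H19 in control and of Meg3 in DEHP, so their drop is not that of a single promoter. In that strain the log2 ratios were -0.47 for H19, 0.23 for Rasgrf1 and -1.39 for Meg3. Whether each probe covers the imprinted region of its gene was not tested, so both lists mark sperm DNA at best in part. Nnat of the maternal list had 9.5 to 26.5 and Rasgrf1 of the paternal list 2.4 to 3.7. The 10 germ cell promoters were not low either, with a median of 5.32 over the 4 groups against 4.65 for all promoters. Among them Tdrd1 had 12.4 to 15.4 and Tex101 7.9 to 16.9. What part, if any, DNA other than that of sperm had in the level of the testis pair was not tested.

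Of the remaining 46 histone promoters, 35 had a log2 ratio above 0 in C57BL/6J (range -1.05 to 1.32) and 31 in FVB/N (range -1.12 to 1.32). Of all 22480 promoters, 9783 were above 0 in C57BL/6J and 15533 in FVB/N, where the share was thus about the same. The median of the 46 was 0.32 (C57BL/6J) and 0.61 (FVB/N), and the median over all promoters was -0.10 and 0.35. With equal sums the median of the 46 was 0.65 and 0.57, and with equal medians 0.25 and 0.18, where all promoters had 0.33 and 0.29 and then -0.16 and -0.17. With all 49, the median lay above that of all promoters by 0.40 (C57BL/6J) and 0.24 (FVB/N). Relative to all promoters, the 49 stood at 0.29 and 0.40 (C57BL/6J) and at 0.25 and 0.33 (FVB/N) with equal sums and equal medians. In C57BL/6J 37 of 49 were above the median of all promoters, and 27 of 49 in FVB/N. In both strains together, 24 promoters had log2 ratios above 0, 5 below 0, and 20 differed in sign or were at 0. The ratios of the 2 strains had rho = 0.36 over the 49 promoters and 0.27 without the testis pair, as a description across promoters of which many overlap and which share both submissions.

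By class, the median log2 ratio relative to all promoters was 0.27, 0.48, 0.26, 0.44 and 0.26 for H1, H2A, H2B, H3 and H4 in C57BL/6J. In FVB/N these were 0.59, 0.07, -0.06, 0.60 and 0.59. With equal sums H2B and H4 stood at 0.05 and 0.06 in C57BL/6J. By level, a group of strata chosen after the data were seen, the 12 histone promoters with 3 to under 9 normalized reads had medians of 0.42 (C57BL/6J) and 0.94 (FVB/N), and the 8583 other promoters of that level 0.00 and 0.57. The 21 with 1 to under 3 had 0.45 and 0.64 against 0.27 and 0.42, and the 16 below 1 had 0.13 and -0.12 against 0.11 and 0.07.

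**Figure D5:**
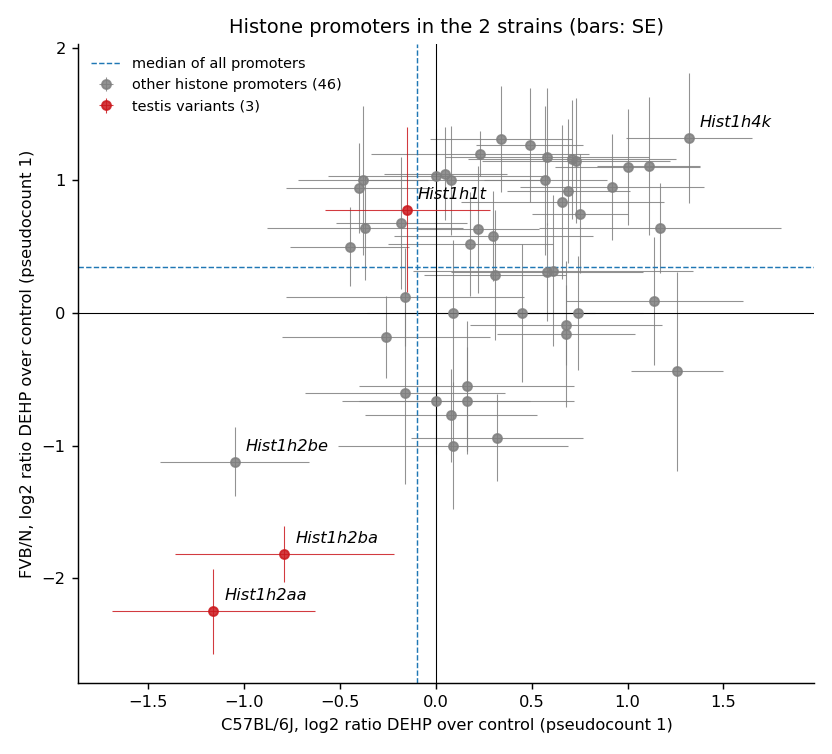
Log2 ratio of DEHP over control (pseudocount 1, bars are SE) in C57BL/6J (x axis) and FVB/N (y axis) for the 49 histone promoters, with the testis variants in red and dashed lines at the medians of all promoters. Hist1h2aa (-1.16, -2.25) and Hist1h2ba (-0.79, -1.82) lie apart at the lower left, with Hist1h2be (-1.05, -1.12) nearest to them and Hist1h4k (1.32, 1.32) at the opposite end.

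With the looser criterion that the ranges of mean ± 1 SD do not overlap, 3 of 49 (6.12%) were higher after DEHP in C57BL/6J and 0 lower, where 3.67% and 11.8% of all promoters were. The 3 were Hist1h4k, Hist1h2af and Hist1h3e. In FVB/N 5 (10.2%) were higher and 3 (6.12%) lower, where 8.69% and 3.67% of all promoters were. Those higher were Hist1h4k, Hist1h1c, Hist1h2ag, Hist2h3c1 and Hist3h2a, and those lower were the testis pair and Hist1h2be. Hist1h4k, an H4 gene, met it in both strains, with 1.4 ± 1.0 in control and 5.0 ± 1.8 after DEHP in C57BL/6J (log2 ratio 1.32 ± 0.33) and with 1.6 ± 1.8 and 5.5 ± 2.0 in FVB/N (1.32 ± 0.49). It had the highest log2 ratio of the 49 in both strains. With equal sums its ratios were 1.66 ± 0.30 (C57BL/6J) and 1.29 ± 0.51 (FVB/N), and with equal medians 1.21 ± 0.32 and 0.83 ± 0.55. Hist1h2bn, whose probe shares 383 bp and 2 CG sites with it, had 2.1 ± 1.0 and 4.0 ± 1.9, and 1.8 ± 2.1 and 4.3 ± 1.9. Hist1h4j, similar to Hist1h4k around its start, had a log2 ratio of 0.94 ± 0.34 in FVB/N and of -0.40 ± 0.38 in C57BL/6J. The sign in C57BL/6J depends on the scaling, since with equal sums the ratio there was 0.08 ± 0.37. In FVB/N the ratio stayed positive, but with equal medians it was 0.35 ± 0.36, less than its SE. Hist1h2be, an H2B gene, was lower after DEHP with 1.6 ± 0.6 in control and 0.2 ± 0.4 after DEHP in FVB/N, and 1.7 ± 1.4 and 0.3 ± 0.4 in C57BL/6J. Hist1h2be, Hist1h4k, Hist1h2af, Hist1h3e, Hist1h2ag and Hist3h2a were named after their values were seen.

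Of the promoters with at least 3 normalized reads in both groups, the highest log2 ratios in C57BL/6J were those of Hist4h4 (0.57 ± 0.32), Hist1h1c (0.49 ± 0.28) and Hist2h3c1 (0.34 ± 0.37), and the lowest those of Hist1h2ba, Hist1h4j and Hist1h2ab (-0.18 ± 0.34). Hist4h4 had 3.1 ± 1.0 in control and 5.1 ± 2.6 after DEHP there, and its values in FVB/N were 1.7 ± 2.0 and 4.4 ± 2.4. In FVB/N only 4 promoters had 3 normalized reads in both groups, namely Hist1h4j, Hist1h1t (0.78 ± 0.62), Hist1h2ab (0.68 ± 0.50) and Hist1h2bc (0.29 ± 0.49). All of these log2 ratios, those of Hist1h4j and Hist1h2ba in C57BL/6J included, except that of Hist1h4j in FVB/N were under 2 SE. With equal sums, however, Hist4h4 (0.99 ± 0.31), Hist1h1c (0.95 ± 0.27) and Hist2h3c1 (0.77 ± 0.35) passed 2 SE in C57BL/6J, and Hist1h2ab turned to 0.32 ± 0.34. That scaling moved the C57BL/6J median of all promoters from -0.10 to 0.33, so what it added to these ratios was common to all promoters. As deposited and with equal sums the 3 ratios lay above that median, having been chosen as the highest. With equal medians Hist1h2ab was at 0.05 ± 0.52 and Hist1h2bc at -0.26 ± 0.53 in FVB/N.

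Between the strains no histone promoter was separated. In controls 1.06% of all promoters were separated with C57BL/6J higher and 0.0267% with FVB/N higher, and after DEHP 0.307% and 0.0311%. The median log2 ratio of C57BL/6J over FVB/N in controls was 0.07 for the histone promoters and 0.54 for all promoters, that is 0.47 lower, and it was 0.31 and 0.33 lower with equal sums and equal medians, where the histone median itself was -0.31 and -0.37. After DEHP the medians were 0.08 and 0.04. The 3 testis variants had ratios of -0.71 (Hist1h2aa), -0.62 (Hist1h2ba) and 0.70 (Hist1h1t) in controls and 0.39, 0.42 and -0.23 after DEHP. Hist2h3c1 had the highest ratio in controls (1.24 ± 0.47). By ranges of 1 SD, 1 promoter was lower in C57BL/6J after DEHP, where 0.703% of all promoters were, namely Hist1h2bp with 0.1 ± 0.3 against 1.4 ± 0.7. Variants between the strains, as counted by the authors, lay in 31 of the 49 probes, with up to 22 (Hist3h2a). Their number and the size of the strain ratio in controls had rho = 0.05 over the 49 promoters.

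Promoters of other genes for histones and their handling were taken as a background. Of 20 genes for replacement and other variants outside the clusters, 19 were in the table, with a median level of 4.58 over the 4 groups. Separated downward in C57BL/6J was 1 of them, the spermatid linker histone Hils1 (25.3 ± 1.8 and 12.9 ± 3.9), and 0 in FVB/N. The 19 factors that make or process histone mRNA had a median of 3.23, and 0 were separated in either strain, with Slbp, the protein that binds the stem-loop, at 22.9 ± 7.1 and 8.3 ± 2.7 in FVB/N and at 28.5 ± 10.5 and 7.3 ± 2.1 in C57BL/6J (named after its values were seen). The 14 histone chaperones had a median of 1.65, near that of the histone genes, and 0 were separated. Their median log2 ratios of DEHP over control were -0.42, -0.31 and 0.04 (C57BL/6J) and -0.10, 0.44 and 0.29 (FVB/N) for the variants, the mRNA factors and the chaperones.

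The table also carries expression values from an independent dataset, on a scale that is not stated, for 7 of the 49 genes. For Hist1h1t they were 4.46 in spermatogonia, 5.28 in spermatocytes and 5.91 in spermatids. For Hist1h1c they were 7.18, 4.74 and 4.82, with 8.58 in Sertoli cells. The table holds no such value for Hist1h2aa or Hist1h2ba.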

How the data were processed

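Sperm DNA of 20 males (4 groups of 5, from the labels) was analyzed by MBD-sequencing. Reads were mapped by the authors with Bowtie 0.12.7 (genome build mm10), and pairs with several positions, with inserts above 600 bp or without a CpG were discarded. Per promoter probe, the authors counted the pairs left and normalized these counts with edgeR. A probe had been kept with over 3 pairs in over 2 samples. The signal values used here are the group means and SDs of normalized reads that the authors deposited with 1 decimal. Their own fold changes, p-values and FDR, held in the same table, were not used. Depth per library is not in the table, and the methods give only averages, higher for the DEHP libraries.

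Computed here were log2 ratios of group means with a pseudocount of 1, their SE from the SDs (delta method), and separation of groups by mean ± 1.79 SD, widened by 0.05 for rounding, which was tested on generated data before use. Medians of a list are given beside those of all promoters. CG sites, 51-base words and exons came from GRCm38.p6 (GENCODE), promoter windows from RefSeq, matched by gene ID. Python 3.11.15, numpy 2.4.6, pandas 2.3.3, scipy 1.17.1, numba 0.67.0 and matplotlib 3.10.9 were used.

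The histone promoters, gene lists and rules were chosen with earlier results of these data known. Named were the testis variants, promoters separated in any of 4 contrasts, the highest and lowest of each class, the 3 highest and 3 lowest log2 ratios per strain with both means at least 3, and the fewest and most CG sites. Alternatives were scaling to equal sums or medians, a pseudocount of 0.1, a filter on means of at least 1, levels per CG site, ranges of 1 SD and 1 probe per overlapping set.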

Additional observations from a re-analysis of the deposited data

How the results depend on the processing

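Of 104 values recomputed under the alternatives, 96 stayed within the spread between libraries or within 1.5 times of the count, 8 moved and 0 reversed a called value. For log2 ratios that spread was that of single promoters. A median over many promoters could thus change sign and still count as staying. The median strain ratio in controls did so, from 0.07 to -0.31 (equal sums) and -0.37 (equal medians). So did the median of DEHP over control in FVB/N, from 0.58 to -0.12 in promoters with a level below 1. With 1 probe for each set of overlapping probes, the histone promoters separated downward in FVB/N went from 2 to 1, by construction, since Hist1h2aa and Hist1h2ba overlap. With ranges of 1 SD, 3 (C57BL/6J) and 5 (FVB/N) were higher after DEHP, against 0 with the stricter bound, and 1 was lower in C57BL/6J than in FVB/N after DEHP, against 0. Per CG site, the median of the histone promoters was 0.13 and 0.22 of that of all promoters in C57BL/6J (control, then DEHP) and 0.16 and 0.22 in FVB/N, where per probe it was 0.24, 0.38, 0.33 and 0.37. The separation of Hist1h2aa and Hist1h2ba in FVB/N held with equal sums and equal medians, with log2 ratios of -2.38 and -2.87 for Hist1h2aa and -1.94 and -2.44 for Hist1h2ba. The difference of the 2 strains in the log2 ratio passed 2 SE for this pair with equal sums and equal medians and not as deposited. As deposited, 16.6% of all promoters passed it. The strata of level were added after the data were seen.

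No paired analysis was possible because the table holds group means and SDs only, and the labels give no replicate numbers. Leaving out single libraries could not be run on group means either. Most histone promoters hold fewer than 3 normalized reads, often with an SD as large as the mean, which limits the differences that the bound can separate at that level.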
